A study of Mus musculus with 6 samples.

Results

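Cluster 3 is 1 of the 14 groups into which the authors divided the cells of this study by their RNA profiles. Its members are all cells and nuclei that the deposited table assigns to that cluster, 5396 of 51785. They were chosen by the deposited cluster number alone. The study treated PB3, a mouse mammary tumour cell line carrying lentiviral lineage barcodes, with repeated rounds of a microtubule drug and profiled RNA in single cells and single nuclei. Cells after 4 rounds of eribulin (ERI4 cells) and untreated cells (UNT cells) were captured in run 1. Cells after 1, 2 and 3 rounds of eribulin (ERI1, ERI2, ERI3), and cells after 1, 2 and 3 rounds of paclitaxel (PAC1, PAC2, PAC3), were captured in run 2 as 2 libraries, 1 per drug, whose conditions were told apart by hashtag oligos. Run 3 held nuclei after 4 rounds of eribulin (ERI4 nuclei) and untreated nuclei (UNT nuclei). Each eribulin round was 500 nM for 72 h followed by 48 h of recovery. Paclitaxel was given at 100 nM for 72 h in the first round and at 250 nM in later ones. The labels name a recovery after the last round of PAC1 and PAC3 and none after that of PAC2. The labels name no repeat of any culture.

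Eribulin blocks the growth of microtubules and paclitaxel stabilises them, and both disturb the mitotic spindle of dividing cells. A lineage barcode is a short synthetic sequence that integrates into the genome, is transcribed and is passed to daughter cells, so cells with the same barcode are taken as descendants of the same marked cell. Pseudotime orders cells by how far their RNA profile lies from a chosen root, here the untreated cells, in arbitrary units. S and G2M scores rise with the transcripts of genes used in DNA replication and in mitosis, and the mitochondrial share of transcripts is a common measure of damaged cells. Cluster 3 was the largest cluster of ERI4 cells, and nearly all its barcoded members in that condition belonged to a single lineage.

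The barcodes that carry these results are printed from the authors' list of barcode features. The capitals mark the variable parts of 14 and 30 bases, and the lower-case letters are the constant spacer of 4 bases between them. The first barcode was the leading one of cluster 3. The next 4 were the other lineages of its ERI4 cells that the naming rule kept, and the last was found there in paclitaxel-treated cells.
bc14-55-bc30-23349: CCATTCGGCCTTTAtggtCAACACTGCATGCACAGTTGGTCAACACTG
bc14-6-bc30-93034: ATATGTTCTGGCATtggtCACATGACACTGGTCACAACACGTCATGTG
bc14-95-bc30-33662: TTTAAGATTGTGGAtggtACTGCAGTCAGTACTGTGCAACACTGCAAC
bc14-89-bc30-6288: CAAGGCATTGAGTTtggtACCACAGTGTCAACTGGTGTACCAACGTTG
bc14-76-bc30-49517: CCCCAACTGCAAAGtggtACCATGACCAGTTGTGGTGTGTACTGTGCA
bc14-10-bc30-85109: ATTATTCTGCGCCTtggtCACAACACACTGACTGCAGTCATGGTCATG
Aligned without gaps, the other 5 differed from the leading barcode at 32 to 40 of the 48 positions, so a single misread base does not turn one into another.

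Every condition had 1 library. The cells of 1 library do not replicate a treatment. Differences were therefore not tested and carry no p-value, and values are set side by side. Parentheses after a share hold its exact 95% interval by the Clopper-Pearson method. Where 0 cells were found, the limit given is the share that 3 of them would have made. Intervals and limits cover counting error only. Clusters, pseudotime, phase scores and map position all come from the same RNA profiles, so differences in them between cluster 3 and other clusters describe how the cluster was drawn. Barcodes are another readout of the same cells. The number of detected RNA molecules (UMIs) is the total of the same RNA profile, so depth is not separate from how the cluster was drawn. Median depth over all cells of a condition was 11267 to 20877 UMIs in the cell conditions, 2089 in ERI4 nuclei and 3428 in UNT nuclei. No gene expression matrix was analysed here, so the markers of the cell state were not checked and the cluster is called by its number. A set of 245 droplet barcodes occurred in more than 1 library, and in 0 of these cases were both copies in cluster 3.

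The members came from 7 conditions that did not lie together, and a cluster filled mostly by 1 library may reflect that library. Of the cluster, 86.8% were ERI4 cells, 8.08% ERI4 nuclei and 4.17% ERI3 cells. On the UMAP, a 2-dimensional map in which cells with similar profiles lie close, the ERI4 cells of cluster 3 had medians of -2.39 on axis 1 and 8.52 on axis 2. ERI3 cells of the cluster had medians of -1.61 and 1.05, and ERI4 nuclei of the cluster 7.06 and 3.14. Among the 30 nearest neighbours of an ERI4 cell of cluster 3, 94.7% were also in the cluster and 99.5% were ERI4 cells. For ERI3 members these neighbours were 17.7% in cluster 3 and 68.1% in cluster 2, and 46.7% were ERI3 cells, 30.1% PAC3 cells and 11.6% ERI4 cells. For nuclei of the cluster, 12.7% were in cluster 3, 30.2% in cluster 4 and 30.0% in cluster 10, and 99.9% were ERI4 nuclei. On this map cluster 3 was thus a compact region in ERI4 cells, and in ERI3 and the nuclei its members lay among other clusters. All values below are therefore given by condition.

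**Figure D1:**
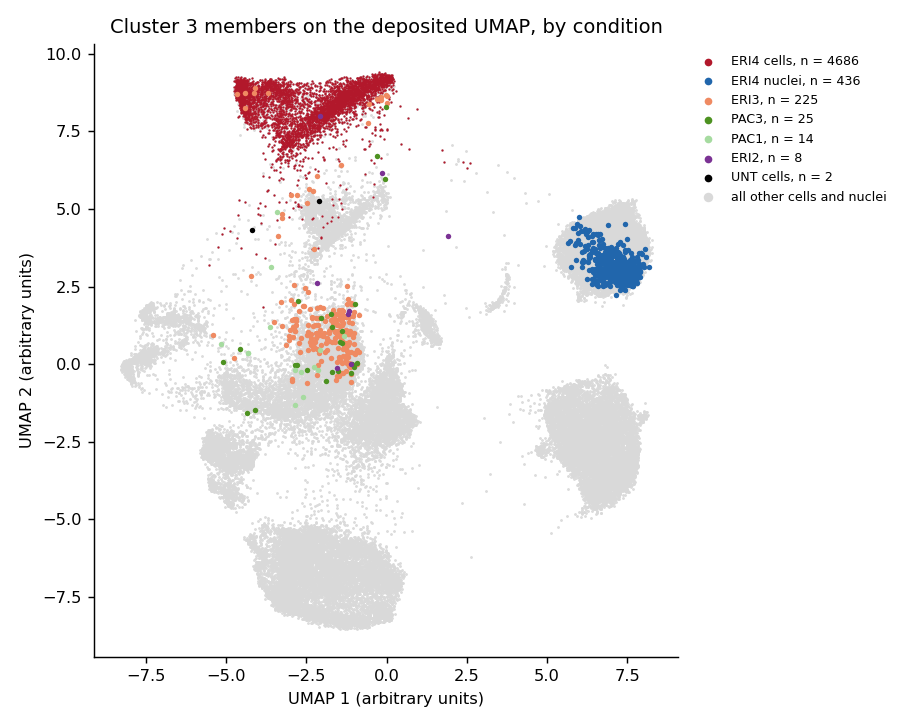
Deposited UMAP coordinates (both axes in arbitrary units) of all cells and nuclei in grey, with the members of cluster 3 coloured by condition. The 4686 ERI4 cells fill the region at the top, the 436 ERI4 nuclei lie to the right, and most of the 225 ERI3 cells lie near 1.05 on the second axis.

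A small group of ERI3 members did lie with the ERI4 cells. Of the 225 ERI3 members, 14 lay above 7.10 on axis 2, the 5th percentile of the ERI4 members, which is 6.22% (3.44 to 10.2). Of these 14 cells, 13 carried the leading barcode, and their median pseudotime was 31.0, against 25 in the other 211. Their median depth was 15655.5 UMIs, against 12041 UMIs in the other 211. Of the 436 nuclei, 0 lay above that line, which allows a share of up to 0.688%.

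Cluster 3 was rare before the third round of eribulin and was the largest cluster of cells after the fourth. It held 2 of 11061 UNT cells, 0.0181% (0.00219 to 0.0653), 0 of 1865 ERI1 cells, which allows up to 0.161%, and 8 of 1257 ERI2 cells, 0.636% (0.275 to 1.25). It held 225 of 3076 ERI3 cells, 7.31% (6.42 to 8.29), and 4686 of 9331 ERI4 cells, 50.2% (49.2 to 51.2). The intervals of UNT cells, ERI3 and ERI4 cells lie apart from each other. UNT and ERI4 cells were captured in run 1 and the other rounds in run 2, so run and round cannot be told apart between ERI3 and ERI4.

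Under paclitaxel the cluster stayed small. It held 14 of 2928 PAC1 cells, 0.478% (0.262 to 0.801), 0 of 848 PAC2 cells, which allows up to 0.354%, and 25 of 2792 PAC3 cells, 0.895% (0.580 to 1.32). At 3 rounds the share in ERI3 lay above that in PAC3 by more than both intervals, while drug, dose and library changed together. In nuclei it held 436 of 8711 ERI4 nuclei, 5.01% (4.56 to 5.48), and 0 of 9916 UNT nuclei, which allows up to 0.0303%. The share in ERI4 nuclei was 10.4% among nuclei with 2176.5 to 4971 UMIs and 7.30% among those with at least 1000 genes, so it changed with the range of depth kept.

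**Figure D2:**
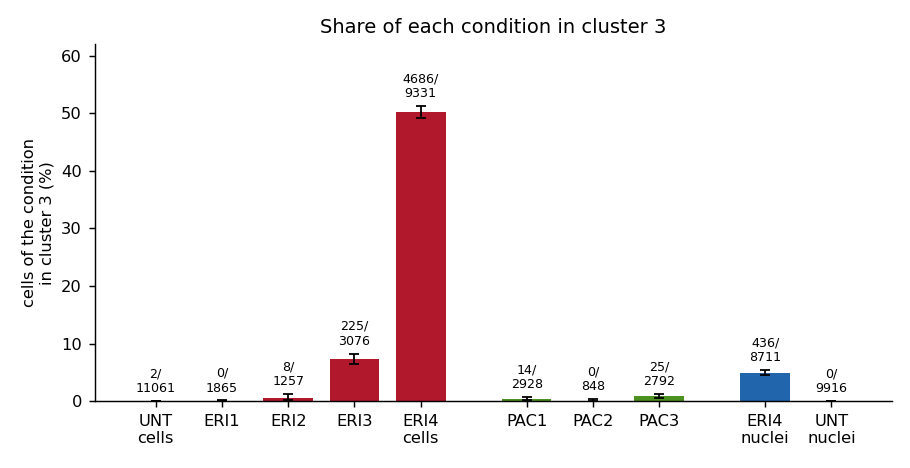
Share of each condition's cells or nuclei in cluster 3, in percent, with exact 95% intervals as error bars and the counts above the bars. The bar of ERI4 cells reaches 50.2%, those of ERI3 and ERI4 nuclei 7.31% and 5.01%, and the others stay under 1%.

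Depth and quality differed between the conditions inside the cluster. ERI4 members had a median of 20073.5 UMIs and 4324 genes (middle 50% 15328 to 27117 UMIs), ERI3 members 12132 UMIs and 3164 genes (9439 to 15739 UMIs), and nuclei 2860.5 UMIs and 1528.5 genes (2401 to 3481.5 UMIs). The median mitochondrial share was 4.85% in ERI4 members (4.35 to 5.41), 3.00% in ERI3 members (2.46 to 3.62) and 12% in nuclei (10.1 to 14.1). Few members were of low quality by these measures: 23 ERI4 cells, 12 nuclei and 0 ERI3 cells had under 1000 genes, and 1 ERI4 cell, 3 nuclei and 0 ERI3 cells had over 20% mitochondrial transcripts. Within ERI4 cells the mitochondrial median was 4.85% in cluster 3, against 4.55% in cluster 2, 4.35% in cluster 8 and 4.73% in cluster 12. In ERI3 it was 3.00% in cluster 3, against 3.01%, 2.84% and 2.63% in these clusters.

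By medians over all cells, the name under which the cluster was put forward, latest in pseudotime, held in ERI4 cells and not in every condition. In ERI4 cells the median pseudotime was 30.0 in cluster 3 (middle 50% 28.7 to 30.7). Of the clusters with at least 50 ERI4 cells, the next were cluster 10 with 26.4, cluster 12 with 26.1 and cluster 2 with 25.7, while cluster 8 had 17.8. In random pairs of ERI4 cells, the cell of cluster 3 was the later one in 92.3% of pairs with cluster 10, 94.3% with cluster 12, 96.4% with cluster 2 and 99.5% with cluster 8. In PAC3, where its 25 cells lie under that minimum, clusters with at least 20 cells were compared. There cluster 3 also had the highest median, 25.2 (middle 50% 20.7 to 29.8), against 22.0 in cluster 9 and 21.0 in cluster 2. The 2 PAC3 cells of cluster 12 had a median of 26.0.

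In ERI3 the median of cluster 3 was 25 (middle 50% 23.5 to 29.6), and cluster 12 was higher with 26.9. The cell of cluster 3 was later in 38% of pairs with cluster 12, in 85.6% with cluster 2 and in 98.7% with cluster 8. In ERI4 nuclei the median was 24.0 (23.1 to 25), below cluster 12 with 25.4 and cluster 10 with 25, and the nucleus of cluster 3 was later in 35.8% and 32.4% of those pairs. Against cluster 2 it was later in 55.2% of pairs and against cluster 8 in 72.4%. Between the rounds, the ERI4 member was later than the ERI3 member in 80.2% of pairs, with medians 4.95 apart.

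The far end of the scale was nearly all ERI4 cells of cluster 3. Of the 2590 cells with the highest 5% of pseudotime, those at 29.8 or more, 2572 were in cluster 3 and 2504 of these were ERI4 cells. They also held 51 ERI3 members, 7 PAC3 members and 7 nuclei of the cluster. Pseudotime values were partly tied: 57 values were each shared by at least 100 cells, and 616 ERI4 members sat at 31.4. Such values held 24.8% of ERI4 members, 52.9% of ERI3 members and 15.1% of nuclei. A comparison without these cells was chosen after the ties were seen. The medians were then 29.4 in ERI4 members, 28.6 in ERI3 members and 24.0 in nuclei. The gap between ERI4 and ERI3 thus depended on the tied cells. In ERI3 the median and the maximum of cluster 12 were both 26.9, below that 28.6. The order of clusters 3 and 12 in ERI3 thus also depended on tied cells.

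**Figure D3:**
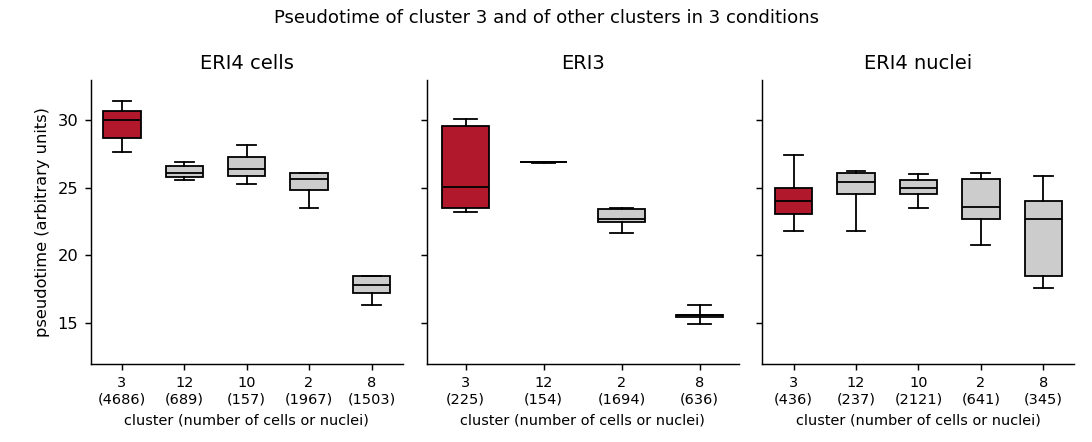
Pseudotime (arbitrary units) of cluster 3, in red, and of clusters 12, 10, 2 and 8 with at least 50 members, in grey, in ERI4 cells, ERI3 and ERI4 nuclei. Lines are medians, boxes the middle 50% and whiskers the 10th to 90th percentile. Cluster 3 has the highest median in ERI4 cells, 30.0, and not in ERI3 or the nuclei, where cluster 12 has 26.9 and 25.4.

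The phase of a cell was set from the deposited scores, as G1 where both were at or below 0 and otherwise as the phase with the higher score. Nuclei have no scores. Of the ERI4 members, 45.2% (43.7 to 46.6) were called G1, 15.7% (14.6 to 16.7) S and 39.2% (37.8 to 40.6) G2M. The S share was lower than in the 3 other main clusters of the same library, where cluster 2 had 30.5% (interval 28.5 to 32.6), cluster 8 had 29.5% (interval 27.2 to 31.9) and cluster 12 had 29.0% (interval 25.7 to 32.6). The G1 share was higher than in these clusters, which had 33.4%, 34.7% and 24.8%. The G2M share lay between theirs, at 36.1% in cluster 2, 35.8% in cluster 8 and 46.2% in cluster 12.

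The S share of cluster 3 was also below theirs within a shared range of depth. Among ERI4 cells with 13748.2 to 32273.6 UMIs, 18.2% (16.9 to 19.6) of cluster 3 were called S, against 37.4% (34.9 to 40.0) of cluster 2, 34.3% (31.6 to 37.1) of cluster 8 and 31.1% (27.1 to 35.3) of cluster 12. In ERI3 the S share was 16.4% (11.9 to 21.9) in cluster 3 and 19.9% (18.4 to 21.4) in all other ERI3 cells, with intervals that overlap. With 225 cells a difference of that size was not detectable. Its G1 and G2M shares were 46.7% (40.0 to 53.4) and 36.9% (30.6 to 43.6), against 39.5% and 40.7% in the other ERI3 cells. Between the rounds, the G2M share of members was 39.2% in ERI4 and 36.9% in ERI3, and with 12685.5 to 22101.6 UMIs 26.5% in ERI4 and 47.5% in ERI3. The order thus turned in this range of UMIs. The range starts above the ERI3 members' median of 12132 UMIs and leaves out the deepest ERI4 members. Members called G2M were deeper than those called G1 in both rounds. Their medians were 24774 against 16391.5 UMIs in ERI4 and 13639 against 10906 UMIs in ERI3. The cause of the turn was not tested. Of the 25 PAC3 members 12 were called G1, 1 S and 12 G2M. Phase calls also read depth and free RNA, and they are not read here as division rates.

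**Figure D4:**
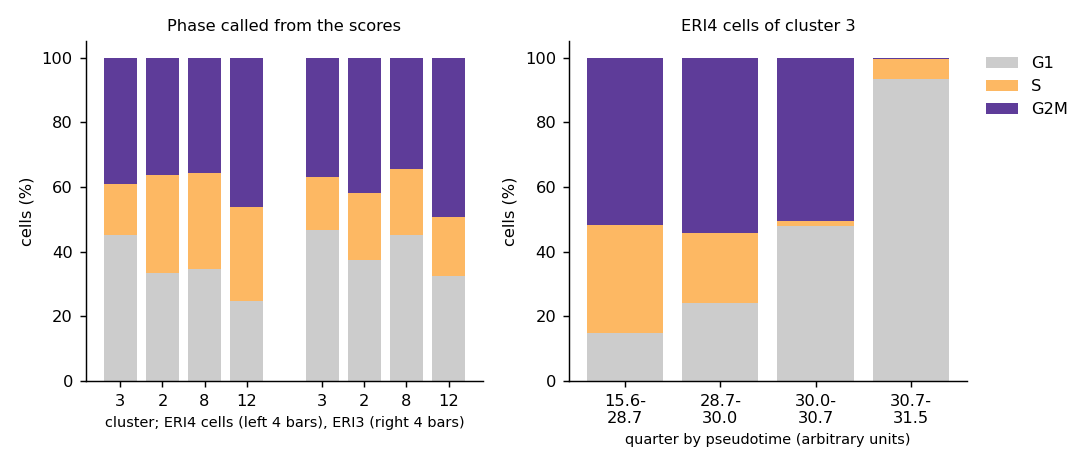
Left: phase make-up, in percent of cells, of clusters 3, 2, 8 and 12 in ERI4 cells and ERI3. Right: phase make-up of the ERI4 members of cluster 3 in 4 equal groups by pseudotime, labelled by their range. The S share of cluster 3 in ERI4 cells is 15.7%, below the other 3 clusters, and the latest group is 93.4% G1.

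Inside the cluster the phases were laid out along pseudotime. The 4686 ERI4 members were divided by pseudotime into 4 equal groups, early to late. Cells called G1 made up 15% (13 to 17.2), 24.1% (21.7 to 26.6), 48.1% (45.2 to 51.0) and 93.4% (91.9 to 94.8) of these groups. Cells called S made up 33.4%, 21.6%, 1.54% and 6.14%, and cells called G2M 51.6%, 54.3%, 50.4% and 0.427%. Thus nearly all the latest members had both scores at or below 0, and most S calls lay in the earlier part.

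Depth moved along the same axis. Median UMIs were 24878.5, 23103, 16413 and 16205 in the 4 groups, and median mitochondrial shares 4.44%, 4.69%, 4.95% and 5.46%. The part of depth in this order was not tested. Across the 4686 cells, which share 1 library, Spearman's correlation of pseudotime was -0.63 with the S score, -0.55 with the G2M score, -0.43 with UMIs and 0.44 with the mitochondrial share. In ERI4 cells of cluster 2 the correlations with the scores were 0.27 and 0.23, in cluster 12 they were 0.21 and 0.31, and in cluster 8 they were 0.05 and -0.22. Within ERI4 cells, of these 4 clusters, the negative sign with the S score was thus seen in cluster 3. That with the G2M score was seen in clusters 3 and 8. By phase, the median pseudotime of ERI4 members was 30.8 in G1, 28.6 in S and 29.3 in G2M.

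The map of the cluster was ordered in a similar way. In 4 equal groups along UMAP axis 1, low to high, G2M calls made up 99.6%, 38.5%, 17.3% and 1.28% of ERI4 members, S calls 0.0853%, 41.1%, 17.5% and 4.01%, and G1 calls 0.341%, 20.4%, 65.2% and 94.7%. The correlation of that axis with the G2M score was -0.88 across the 4686 cells. In other clusters of ERI4 cells it was -0.82 in cluster 2, -0.47 in cluster 8 and 0.70 in cluster 12, so this order was shared with cluster 2. In ERI3 the layout was weaker: over 225 cells pseudotime correlated at -0.26 with the S score and 0.08 with the G2M score. The correlation with the S score in ERI3 was -0.22 in cluster 8, 0.22 in cluster 2 and 0.07 in cluster 12. The negative sign was thus shared with cluster 8 there. Median pseudotime of ERI3 members was 25 in G1, 23.5 in S and 26.3 in G2M, so G1 cells were not the latest there.

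Most members in cells carried a called barcode, and most of those the same one. A barcode was called in 4526 of the 4686 ERI4 members, 96.6% (96.0 to 97.1), and in 216 of the 225 ERI3 members, 96% (92.5 to 98.2). Barcode bc14-55-bc30-23349 was the call in 4431 of the 4526, 97.9% (97.4 to 98.3), and in 196 of the 216, 90.7% (86.1 to 94.3). It was also the call in 4 of the 7 barcoded ERI2 members. In the ERI4 members 7 different barcodes were called, and in the ERI3 members 10. Among ERI4 members with exactly 1 detected barcode, which leaves less room for mixed droplets, 2709 of 2711 had the leading barcode. That limit also removes other lineages more often. At least 2 barcodes were detected in 78.0% of ERI4 cells of other lineages outside the cluster, against 38.9% of the leading lineage's members. The value is therefore no separate check of the share.

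Seen from the lineage, its few UNT and ERI1 cells lay outside cluster 3, and most of its ERI3 and ERI4 cells lay inside it, while most of its ERI4 nuclei lay outside. Of its 14 UNT cells 0 were in cluster 3 and 10 in cluster 1, and of its 5 ERI1 cells 0 were in cluster 3 and 3 in cluster 7. Of its 7 ERI2 cells 4 were in cluster 3 and the other 3 in cluster 7. Of 305 ERI3 cells 196 were in cluster 3, 64.3% (58.6 to 69.6), 81 in cluster 2 and 23 in cluster 6, and of 4597 ERI4 cells 4431 were in cluster 3, 96.4% (95.8 to 96.9). Of its 151 ERI4 nuclei 11 were in cluster 3, 7.28% (3.69 to 12.7). The counts of the first 3 conditions are too small for a firm share: 0 of 14 cells allows up to 21.4%. Its median pseudotime was 9.02 in UNT cells, 13.6 in ERI1, 23.2 in ERI2, 23.5 in ERI3 and 30.0 in ERI4 cells.

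The other lineages stayed mostly outside. Of barcoded cells of all other lineages, 3 of 875 ERI2 cells, 0.343% (0.0708 to 0.999), 20 of 1910 ERI3 cells, 1.05% (0.641 to 1.61), and 95 of 2128 ERI4 cells, 4.46% (3.63 to 5.43), were in cluster 3. In cells at 3 and at 4 rounds the intervals of the leading lineage lay far above these. In ERI4 nuclei they did not: 47 of 1344 nuclei of other lineages were in cluster 3, 3.50% (2.58 to 4.62). That interval overlaps the one of the leading lineage's nuclei, 3.69 to 12.7. That lineage was chosen as the most frequent barcode of the ERI4 members, so its lead at 4 rounds partly follows from the choice and is a description. The 6 PAC1 cells of the leading lineage held 0 in cluster 3 and 5 in cluster 6, and no PAC2 or PAC3 cell was called with it.

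**Figure D5:**
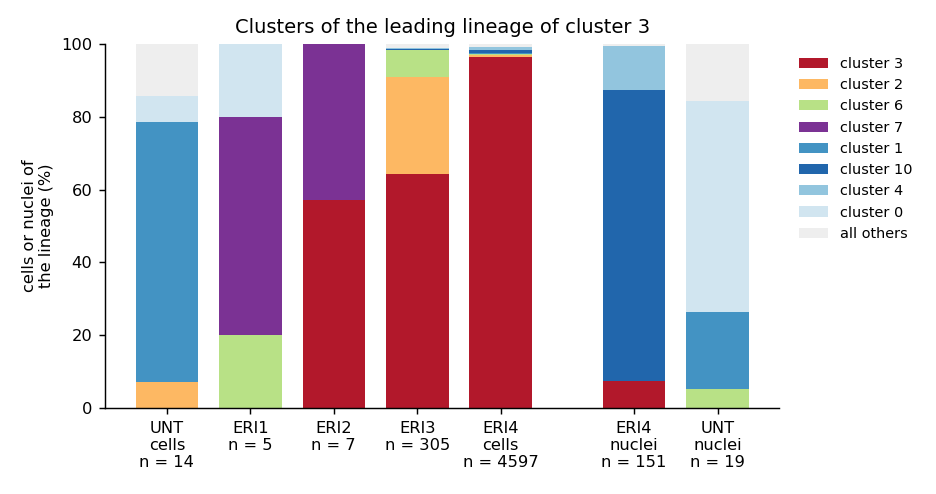
Clusters, in percent of cells or nuclei, of the lineage with barcode bc14-55-bc30-23349 in each eribulin and untreated condition, with its number of called cells under the bars. Cluster 3, in red, takes 0 of 14 UNT cells, 196 of 305 ERI3 cells, 4431 of 4597 ERI4 cells and 11 of 151 ERI4 nuclei.

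The leading lineage gave a comparison in which the lineage was held fixed. In ERI4 cells 4431 of its cells lay inside cluster 3, with a median of 19938 UMIs, and 166 outside. The cells outside included 45 cells in cluster 4 with a median of 60936 UMIs, 40 in cluster 10 with 6542.5 UMIs, 26 in cluster 12, 23 in cluster 6 and 21 in cluster 2. The 45 and the 40 cells thus lay at opposite extremes of depth. The S share of the lineage was 15.5% (14.4 to 16.6) inside the cluster and 15.7% (10.5 to 22.1) outside it. The outside value pools unlike clusters. S calls were 7 of 21 cells in cluster 2, 33.3% (14.6 to 57.0), and 6 of 26 in cluster 12, 23.1% (8.97 to 43.6). They were 6 of 45 in cluster 4, 4 of 40 in cluster 10 and 3 of 23 in cluster 6. These groups are too small for a firm share. The G2M share was 39.3% (37.9 to 40.8) inside and 44.6% (36.9 to 52.5) outside. In ERI3 the S share of the lineage was 16.8% (11.9 to 22.8) inside and 14.7% (8.63 to 22.7) in the 109 cells outside. Their depth was close, with medians of 12110.5 UMIs inside and 11897 UMIs outside, and their pseudotime was 25 inside and 22.6 outside.

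Members of other lineages in ERI4 cells were deep and had several barcodes. These 95 cells were called bc14-6-bc30-93034 in 36 cases, of 667 ERI4 cells of that lineage, bc14-95-bc30-33662 in 28 of 719, bc14-89-bc30-6288 in 18 of 46 and bc14-76-bc30-49517 in 9 of 432. A second detected barcode was found in 93 of the 95, 97.9% (92.6 to 99.7), against 38.9% (37.4 to 40.3) of the leading lineage's members and 78.0% (76.1 to 79.8) of the 2033 ERI4 cells of other lineages outside the cluster. Median UMIs were 31772 in the 95 cells, 19938 in the leading lineage's members and 22539 in the 2033 cells outside. Members that the deposited call names Doublet had a median of 37582 UMIs (57 cells), and those it names Negative, without a called barcode, 8411 UMIs (101 cells). How many of the 95 cells were mixed droplets was not tested.

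Their phase and pseudotime stood beside this depth. The S share was 26.3% (17.8 to 36.4) in the 95 cells, above the 15.5% (14.4 to 16.6) of the leading lineage in the cluster. Cells of bc14-6-bc30-93034 had a median pseudotime of 29.5 in cluster 3 and 17.2 in other clusters, and those of bc14-95-bc30-33662 29.4 and 18.5. Cells of bc14-89-bc30-6288 differed from these: their median was 25.5 both in the cluster and outside, with 25212 UMIs in the cluster and 26449 UMIs outside.

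Detected barcodes set cluster 3 apart from clusters 2 and 12 in ERI4 cells. No barcode was detected in 2.05% (1.66 to 2.50) of cluster 3, against 73.1% (71.0 to 75) of cluster 2, 8.32% (6.97 to 9.83) of cluster 8 and 72.7% (69.2 to 76.0) of cluster 12. Exactly 1 was detected in 57.9% (56.4 to 59.3) of cluster 3 and 2 or more in 40.1% (38.7 to 41.5). In ERI3 the share without a barcode was 1.78% (0.486 to 4.49) in cluster 3. Cluster 2 of that library had 35.8% (interval 33.5 to 38.2), cluster 8 had 1.26% (interval 0.545 to 2.46) and cluster 12 had 24.0% (interval 17.5 to 31.6). The median barcode count per cell was 30 in ERI4 members, against 0 in clusters 2 and 12 of that library, and 14 in ERI3 members, against 1 in those clusters. Cells without a detected barcode have no lineage here, so the lineage make-up of clusters 2 and 12 rests on a minority of their ERI4 cells.

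The nuclei of cluster 3 could not be assigned to a lineage with the same certainty. A barcode was called in 58 of 436, 13.3% (10.3 to 16.9), and 377 were Negative. The leading barcode of the cells was the call in 11 of the 58, 19% (9.87 to 31.4), after bc14-76-bc30-49517 with 21, and before bc14-95-bc30-33662 with 10 and bc14-6-bc30-93034 with 7. An earlier deposited revision of the calls named 197 of the nuclei and gave the leading barcode to 143 of them, 72.6% (65.8 to 78.7). Of these 143 nuclei, 124 were Negative in the latest call. Detected barcodes in nuclei were counted after a barcode feature had been subtracted from each nucleus. By that count 40 of the 143 had no detected barcode, although each had a feature before the subtraction. Whether the subtracted feature was the barcode named by the earlier revision was not tested. Of the 151 ERI4 nuclei that the latest call gives to the lineage, 121 were in cluster 10. Median depth was 2860.5 UMIs in the nuclei of cluster 3 and 4215 UMIs in those of cluster 10.

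Nuclei with exactly 1 detected barcode and no call were frequent in the cluster. Counted after the same subtraction of 1 feature, they made up 248 of its 436 nuclei, 56.9% (52.1 to 61.6). Cluster 10 had 40.4% such nuclei (interval 38.3 to 42.5) and cluster 4 had 33.7% (interval 32.3 to 35.1). Cluster 12 had 22.8% (interval 17.6 to 28.7), cluster 8 had 20% (interval 15.9 to 24.6) and cluster 2 had 18.1% (interval 15.2 to 21.3). In the 19 UNT nuclei of the leading lineage, 0 were in cluster 3, which allows up to 15.8%, and 11 were in cluster 0.

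The smallest groups were mixed. The 8 ERI2 members had pseudotimes of 13.7, 15.9, 23.2, 25, 25, 25.4, 29.8 and 30.2. The 4 with the leading barcode had 23.2, 25, 25 and 29.8, and lay between -0.118 and 1.71 on the second UMAP axis, where most ERI3 members lie. The 2 UNT members had no called barcode: 1 was named Multiplet with 11 detected barcodes and 41860 UMIs, and 1 was Negative with 30866 UMIs. Of the 25 PAC3 members 7 carried bc14-10-bc30-85109, out of 8 PAC3 cells of that lineage, and 6 carried bc14-76-bc30-49517, out of 1118. In the 11 barcoded PAC1 members no barcode was called in more than 2 cells, and bc14-76-bc30-49517 was the call in 2. The barcode that led in ERI4 and ERI3 cells of the cluster was called in none of its PAC1 or PAC3 members.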

How the data were processed

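The cells were taken from the authors' table of 51785 cells and nuclei, their UMAP coordinates and their barcode list. Members and comparisons were chosen with earlier results of these data known. The authors used Cell Ranger 3.1.0 in run 1, Cell Ranger 4.0.0 in run 2 and Cell Ranger ARC 1.0.0 in run 3, with the mm10 genome, per the submitters' processing notes and the design text. The design text states a filter on cells with under 200 genes, or over 50% of UMIs in mitochondrial or ribosomal genes. The deposited table still held 179 cells with under 200 genes or over 50% mitochondrial UMIs, 0 of them in cluster 3, and all were kept. Per the same text, Seurat 3.1.4 and Monocle3 0.2.1 gave clusters, UMAP and pseudotime, with untreated cells as root. The deposited counts are UMIs, genes, barcode counts, hashtag counts and detected barcodes per cell, not normalized. The deposited percent column is the mitochondrial share of UMIs. Among the deposited columns on an arbitrary scale are the S score and G2M score of cells, pseudotime and UMAP coordinates.

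Each library was matched to its labels, and the hashtag condition was taken as the authors deposited it. The labels and the condition column used here give the run 1 eribulin library 4 rounds, while another deposited column of names calls that library ERI1 and was not used. The latest of the deposited barcode calls was used. Calls of Negative, Doublet, Multiplet or unmapped counted as no called barcode, and names written without hyphens in UNT nuclei were read as the same names. Every nucleus has at least 1 barcode feature, so 1 was subtracted there, and all counts of detected barcodes in nuclei depend on this step. Doublets were handled only through these calls, and no doublet caller was run. Gene counts were not at hand, so cells were not thinned. Windows of UMIs from the highest 10th to the lowest 90th percentile of the groups compared were used instead. Barcodes were named with at least 1% of barcoded members in a condition with at least 50 of these, or with 5 members in a condition. Values were computed with Python 3.11.15, pandas 2.3.3, numpy 2.4.6, scipy 1.17.1 and scikit-learn 1.9.0, and figures drawn with matplotlib 3.10.9. The alternatives were other limits on cells, phase scores, barcode calls and neighbours. Chromatin data were not used here.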

Additional observations from a re-analysis of the deposited data

Results flagged for a closer look

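Cluster 3 minus the other clusters of the same condition was compared between ERI4 cells and ERI3 and between ERI4 cells and ERI4 nuclei, over 14 comparisons of a median or a share. In 6 of them the differences went in opposite directions, where differences of shares were counted from 1 percentage point. Below that limit, the share with 2 or more detected barcodes also changed sign. It differed by 0.787 percentage points in ERI4 cells and by -0.733 in ERI3, and is not among the 6. None of these differences was tested, since each condition has 1 library. Median UMIs per cell differed by -1642.5 in ERI4 cells (20073.5 in cluster 3, 21716 in other clusters), by 952 in ERI3 (12132 and 11180) and by 825.5 in ERI4 nuclei (2860.5 and 2035). Median genes per cell differed by -15 in ERI4 cells (4324 and 4339), by 208 in ERI3 (3164 and 2956) and by 366.5 in ERI4 nuclei (1528.5 and 1162). The median mitochondrial share differed by 0.318 percentage points in ERI4 cells (4.85% and 4.53%) and by -0.839 in ERI4 nuclei (12% and 12.9%). The G2M share differed by 1.29 percentage points in ERI4 cells (39.2% and 37.9%) and by -3.76 in ERI3 (36.9% and 40.7%), with overlapping intervals in both conditions.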

How the results depend on the processing

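Of 70 alternative values for 25 results, 49 stayed within the interval of the value given and 21 moved beyond it. For the shares of UMAP neighbours, that interval treated a mean share as a share of cells, which is not its counting error. The sets of 15 and 60 neighbours also overlap with the 30. All alternatives of these shares are among the 49 and are no separate check. In a range of UMIs set for each assay the share of cluster 3 was 51.6% of ERI4 cells (12026 to 36015 UMIs) and 10.4% of ERI4 nuclei (2176.5 to 4971 UMIs), and among nuclei with at least 1000 genes 7.30%. The median pseudotime of ERI4 members was 30.2 in the window shared with ERI3 members, 30.8 in G1 cells and 29.4 without values shared by 100 cells, and that of ERI3 members without such values 28.6. The last setting was chosen after seeing the data. In the same window the mitochondrial median was 4.97% in ERI4 and 2.69% in ERI3 members, and the G2M share 26.5% and 47.5%. With a score limit of 0.1 the S share was 8.54% in ERI4 and 4.89% in ERI3 members, and the G2M share 33.5% and 28%. With the first revision of the calls the leading barcode made up 99.6% of barcoded ERI4 members and 72.6% of nuclei, and with exactly 1 detected barcode 99.9% and 44%. Of the lineage's ERI4 cells, 97.1% and 97.6% were then in cluster 3. The limit to 1 detected barcode removed most ERI4 cells of other lineages, so the 99.9% is set in part by that limit. The G2M order of ERI4 and ERI3 members turned in the window. That window leaves out ERI3 members below their median depth and the deepest ERI4 members, and the cause was not tested.

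No paired analysis was possible because every condition has 1 library, and there was no replicate to leave out. Depth limits the nuclei most, with a median of 2860.5 UMIs, and the cluster has fewer than 50 members in each of ERI2, PAC1, PAC3 and UNT cells, whose shares have wide intervals. The spread between cultures is unknown, and run, round and library cannot be told apart between ERI3 and ERI4.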
